A study of Mus musculus with 51 samples.

Results

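Promoters that carried acetylated histone H3 lysine 27 (H3K27ac) at every profiled stage of astrogliogenesis in culture are described here, together with the position of monomethylated histone H3 lysine 4 (H3K4me1) around their start sites. The members were chosen by their measured H3K27ac peaks: an H3K27ac peak of the aNPC list on chromosomes 1 to 19 was a member if it shared at least 1 bp with a peak of the eA list and with a peak of the lA list, and if its centre lay within 1 kb of a coding transcription start site. Of 77553 aNPC peaks on these chromosomes, 12803 (16.5%) were members. They were nearest to 11338 distinct start sites, of which 9922 had 1 member, 1367 had 2 and 49 had 3 or more.

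The cells were derived from embryonic stem cells of C57/BL-6 mice. Astrogliogenic neural progenitor cells (aNPC) were grown with EGF and FGF-2, and early astrocytes (eA) and late or mature astrocytes (lA) were the same progenitors after 1 and 5 days in medium with serum and LIF. For each of the 2 marks and 3 stages, the authors merged the reads of 2 biological replicates and called 1 peak list, so that 6 lists from 12 samples are described. With 1 list per stage there is no replicate spread, no p-value is given, and a difference between stages cannot be told apart from a difference between lists in depth or enrichment. Where 3 values follow each other without stage names, they are for aNPC, eA and lA in that order.

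H3K27ac is placed by acetyltransferases such as Crebbp and Ep300 and is found at active promoters and active enhancers. H3K4me1 is best known as a mark of enhancers, and at active promoters it usually lies on either side of the start site, which carries the trimethylated form. Promoters rich in CpG, which keep their CpG because they are unmethylated in the germline, serve most housekeeping genes. A TATA box is found at a minority of promoters, many of them of inducible or highly regulated genes.

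The sequences of 5 promoters that differ in their H3K4me1 illustrate the classes described further on. Each line gives the 200 bases before the start site, 5′ to 3′ on the gene's strand in mm9, with each CpG in capitals. None of these bases lies in an annotated exon. The start site of Cdk2ap1 lay inside an H3K4me1 peak at every stage, those of Slc35e2 and Zfp335 had H3K4me1 on both sides at every stage, and those of 5031425E22Rik and Hnrnpa2b1 had none within 2 kb at any stage. Among the start sites of each kind they had the highest −log10 q of H3K27ac in aNPC, after predicted genes and start sites with an exon in the printed stretch were passed over. Passing over the predicted genes was decided after their values were seen.
Cdk2ap1, chr5:124801664-124801863, minus strand: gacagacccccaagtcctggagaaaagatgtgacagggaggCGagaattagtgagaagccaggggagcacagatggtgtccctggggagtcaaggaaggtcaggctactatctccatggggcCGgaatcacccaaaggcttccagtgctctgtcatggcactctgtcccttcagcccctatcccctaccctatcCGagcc
Slc35e2, chr4:154975325-154975524, plus strand: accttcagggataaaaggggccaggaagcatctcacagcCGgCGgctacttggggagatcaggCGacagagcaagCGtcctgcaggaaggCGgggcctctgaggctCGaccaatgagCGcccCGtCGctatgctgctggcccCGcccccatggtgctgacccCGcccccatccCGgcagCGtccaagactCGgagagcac
Zfp335, chr2:164737258-164737457, minus strand: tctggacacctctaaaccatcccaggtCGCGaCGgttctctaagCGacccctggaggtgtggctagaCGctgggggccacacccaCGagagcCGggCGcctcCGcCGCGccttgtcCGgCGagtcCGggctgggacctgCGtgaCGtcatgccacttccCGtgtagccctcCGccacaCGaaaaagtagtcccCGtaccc
5031425E22Rik, chr5:22939738-22939937, minus strand: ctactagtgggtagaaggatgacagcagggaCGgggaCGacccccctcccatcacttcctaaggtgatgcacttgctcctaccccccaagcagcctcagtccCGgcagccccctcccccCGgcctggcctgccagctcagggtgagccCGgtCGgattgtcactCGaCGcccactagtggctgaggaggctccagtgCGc
Hnrnpa2b1, chr6:51419894-51420093, minus strand: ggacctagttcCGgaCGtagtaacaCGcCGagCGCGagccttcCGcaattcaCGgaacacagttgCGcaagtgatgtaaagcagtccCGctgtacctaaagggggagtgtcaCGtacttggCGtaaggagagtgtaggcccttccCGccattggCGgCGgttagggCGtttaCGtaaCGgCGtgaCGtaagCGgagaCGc

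The start site inside H3K4me1 had few CpG in these 200 bases, 3 at Cdk2ap1. The others had 14 at Slc35e2, 20 at Zfp335, 9 at 5031425E22Rik and 22 at Hnrnpa2b1. Cdk2ap1 encodes a partner of a cyclin-dependent kinase. Hnrnpa2b1 encodes an abundant RNA-binding protein of the nucleus.

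The H3K27ac values of the members follow from how they were chosen and are given without a test. Members had a median width of 797 bp in aNPC (quartiles 529 and 1138 bp), and the peaks that overlapped them had a median summed width of 979 bp in eA and 797 bp in lA. The constitutive distal peaks, which met the overlap conditions away from coding start sites, numbered 24271 and had a median width of 585 bp. The 2734 promoter peaks of aNPC that were absent from eA or lA were narrower, with a median of 316 bp. The median −log10 q in the aNPC list was 62.6 for members, 14.4 for the constitutive distal peaks and 9.18 for the promoter peaks absent from eA or lA. Of 15537 promoter peaks of aNPC, 82.4% were members.

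The H3K27ac summit lay downstream of the start site more often than upstream. It was downstream at 63.6%, 66.9% and 63.3% of members (aNPC, eA, lA), with median positions of +137, +156 and +152 bp. Only 10.0% of the aNPC summits lay within 100 bp of the start site. A member was covered by more than 1 peak in 9.88% of cases in eA and 14.7% in lA. The centre of the member lay in an intron in 44.7% of cases, between genes in 25.3%, in an untranslated exon in 18.7% and in coding sequence in 11.3%.

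The widest member was at Kcnd3, a potassium channel gene (chr3:105253926-105257001), with 3076, 2505 and 1614 bp at the aNPC, eA and lA stages. Sox4, a transcription factor gene of neural progenitors, had 3044, 3019 and 2545 bp. Brd2, whose protein binds acetylated histones, had 2965, 2645 and 2869 bp. These 3 members differed in how much of the width was left in lA.
Ptn, the gene of the growth factor pleiotrophin, had 2913, 2593 and 1746 bp. Lgals1, the galectin-1 gene, had 2859, 2737 and 2335 bp. Hmga2, which encodes a chromatin protein of embryonic and progenitor cells, had 2849, 1918 and 258 bp in the lists of aNPC, eA and lA. Hmga2 was thus in all 3 lists while its overlapping peak in lA was the narrowest of these 10 members.
Anp32a, the gene of an acidic nuclear phosphoprotein, had 2846, 2890 and 2737 bp. Zbtb7b, a zinc finger transcription factor gene, had 2777, 1644 and 698 bp. Lrrc41 had 2756, 2649 and 2390 bp. Kdm2b, which encodes a CpG-binding histone demethylase, had 2750, 2174 and 1779 bp. These 10 were chosen by their width in aNPC, so smaller values in the other lists follow in part from the choice, while over all members the median was wider in eA.

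Members were examined next by gene list. The lists were chosen with earlier results of these data known, and since members were chosen by H3K27ac, the counts are a description. A gene counted if a member's centre lay within 1 kb of any of its coding start sites, which held for 10303 of 21410 coding genes (48.1%). Most genes of the basic machinery of the cell had such a promoter. Of 78 genes of cytosolic ribosomal proteins, 75 (96.2%, 95% Wilson interval 89.3 to 98.7) had a constitutive promoter, and the exceptions were Rpl10l, Rpl39l and Rpl3l, paralogs whose names mark them as ribosomal protein-like. Of 75 genes of mitochondrial ribosomal proteins, 74 had one, and Mrpl3 did not. All 8 chaperonin genes had one. The intervals cover counting error only.

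Of 35 tRNA synthetase genes, 34 had a constitutive promoter, with Rars as the exception. Of 31 splicing genes, 30 had one, with Srsf12 as the exception. Of 41 annotated genes of RNA polymerase II and its general factors, 38 had one, and Gtf2a1l, Polr2e and Polr2l did not. Of 40 proteasome genes, 36 had one. The proteasome genes without one included Psma8, a subunit of germ cells, Psmb8, a subunit of the immunoproteasome, and Psmb11, a subunit of the thymus, beside Psmb3. The respiratory chain and ATP synthase had 71 of 79 genes, translation factors 58 of 65 and replication 16 of 22.

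Gene families that lie in clusters ranged from above to below the 48.1% of all coding genes. The zinc finger genes had a constitutive promoter in 251 of 337 cases (74.5%, 95% Wilson interval 69.6 to 78.8). The replication-dependent histone genes had one in 40 of 67 cases (59.7%, interval 47.7 to 70.6), and since these genes have near-identical copies and reads were aligned to unique positions, single copies are uncertain. The Hox genes had one in 7 of 40 cases (17.5%, interval 8.75 to 32.0). None of 1106 olfactory receptor genes and none of 46 keratin genes had one, which allows shares of up to 0.346% and 7.71% by the upper Wilson bound.

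**Figure D1:**
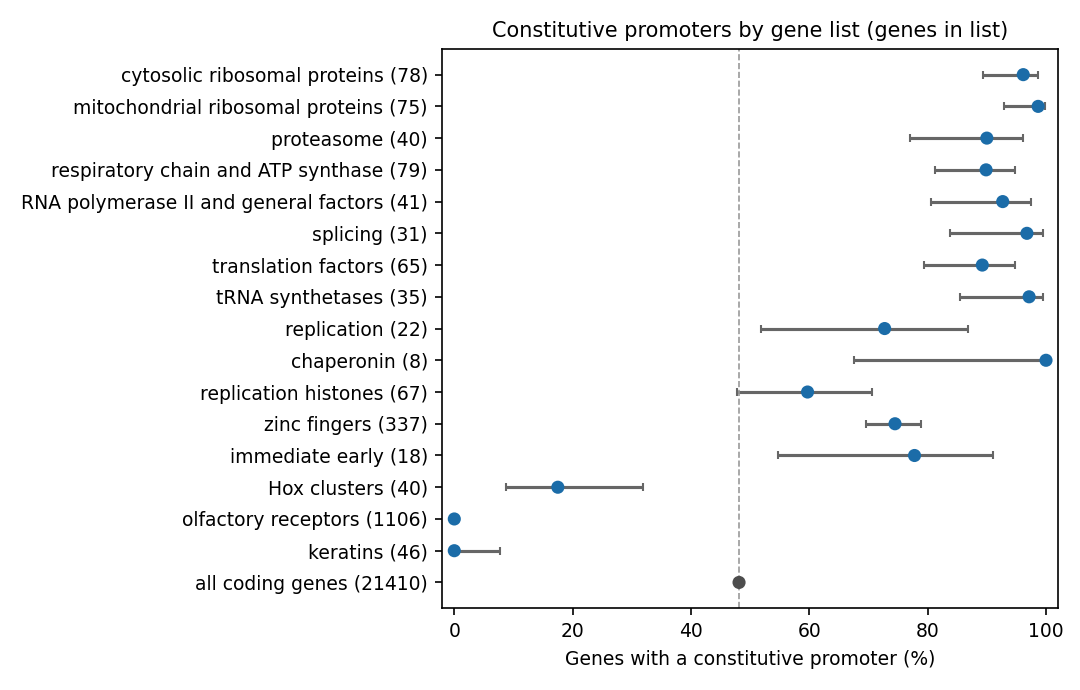
Share of genes with a constitutive promoter (horizontal axis, percent) in each gene list, with the number of genes in brackets and 95% Wilson intervals as bars. The dashed line marks the share over all 21410 coding genes, 48.1%; ribosomal proteins, proteasome, respiratory chain, RNA polymerase II, splicing, translation factors, tRNA synthetases and chaperonin lie at 89.2% or above, while Hox genes lie at 17.5% and olfactory receptor and keratin genes at 0.

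Of 18 immediate early genes, 14 had a constitutive promoter, and Egr3, Fosb, Fosl1 and Ier3 did not. Fos, the gene of a subunit of AP-1, had an H3K27ac peak of 655, then 2117 and 597 bp (aNPC, eA, lA). Fos was therefore widest in eA, the sample taken 1 day after the change of medium. Fosl2 had 1056, 1234 and 1220 bp. Atf3, a stress-induced transcription factor gene, had 691, 946 and 963 bp.

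Marker lists of cell types were examined beside the share of 48.1% over all coding genes. Of 14 astroglial marker genes, 11 had an H3K27ac peak within 1 kb of a start site in the aNPC list, as many in each other list though not the same genes, and 9 had a constitutive promoter, among them Gfap, Slc1a3, Aldoc, Glul and Sox9. Aqp4, Aldh1l1, S100b, Gja1 and Apoe did not: S100b had a peak only in the aNPC list, Apoe only in the eA list and Aqp4 only in the lA list, whereas Gja1 had a peak in all 3 lists that did not meet the conditions for a member. Of 11 neural progenitor markers, 8 had a constitutive promoter, among them Nes, Sox2, Pax6, Vim and Hes1. The other cell types were represented by few genes: constitutive promoters were found for 2 of 11 annotated neuronal markers (Tubb3 and Gad1), 1 of 7 oligodendrocyte markers (Cnp), 1 of 8 markers of pluripotent cells (Klf4), 1 of 7 microglial markers (P2ry12), 2 of 7 fibroblast markers, 0 of 5 endothelial and 0 of 6 endodermal markers. In a bulk list, a mark on fewer cells and a weaker mark on every cell cannot be told apart.

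H3K4me1 was not used to choose the members, and its position could be compared. An H3K4me1 peak overlapped 82.3% of members in aNPC (95% Wilson interval 81.7 to 83.0), 74.9% in eA (74.2 to 75.7) and 68.8% in lA (68.0 to 69.6). Over all aNPC H3K27ac peaks the shares were 82.2%, 79.5% and 72.2%, so that for whole peaks the share of members was near that of all peaks in aNPC and below it in eA and lA. In windows of 200 bp at the H3K27ac summit, the shares were 47.5%, 42.1% and 35.0% of members against 74.1%, 71.4% and 62.6% of all peaks. The H3K4me1 lists themselves grew in the other direction, from 150527 peaks to 181227 and then 203377 peaks. An H3K4me1 peak overlapped 8254 members (64.5%) at every stage and 1877 (14.7%) at none. Between aNPC and eA, 1216 members lost the overlap and 269 gained it, and between eA and lA 1216 lost it and 430 gained it.

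Constitutive distal peaks overlapped H3K4me1 far more often. Their shares were 95.9%, 95.7% and 93.9% at the aNPC, eA and lA stages. The members' shares were lower by 13.5 percentage points in aNPC (members minus distal peaks −13.5, 95% Newcombe interval −14.2 to −12.8), with −20.8 in eA and −25.1 in lA. In windows of 200 bp at the summit the differences were larger, at −45.5, −50.2 and −54.1 points. Against the promoter peaks absent from eA or lA, the direction depended on the interval examined. For whole peaks the members' share was higher by 6.77, 5.55 and 3.91 points in the lists of aNPC, eA and lA, whereas in equal windows of 200 bp at the H3K27ac summit it was lower, with differences of −23.7, −23.9 and −25.2 points. The median widths were 797 bp for members and 316 bp for these peaks, and the part of width in the change of direction was not tested.

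The start site itself was mostly free of H3K4me1. A start site was called covered if it lay inside an H3K4me1 peak, and flanked if it did not but had H3K4me1 peaks within 2 kb on both sides. Of the members' start sites, 17.5% were covered in aNPC (95% Wilson interval 16.8 to 18.2), 14.5% in eA and 11.4% in lA. Flanked start sites made up 65.3%, then 61.1% and 61.8% (aNPC, eA, lA). Over all 43969 coding start sites, 18.2%, 17.0% and 14.7% were covered and 32.8%, 31.0% and 32.1% were flanked. The covered share of members was thus a little below that of all start sites, while their flanked share was well above it in each list.

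H3K4me1 on a single side was more often downstream. It lay only downstream at 1391, 1833 and 1817 of the 11338 start sites, and only upstream at 504, 792 and 1071. The number with H3K4me1 only upstream was thus higher in lA than in eA, while the number with it only downstream was about the same. No H3K4me1 within 2 kb was found at 0.547%, 1.22% and 1.31%. At the 1775 start sites of promoter peaks absent from eA or lA, the covered share was higher, at 39.3%, 36.8% and 31.8%, and the difference of members minus these was −21.8 points in aNPC (95% Newcombe interval −24.2 to −19.4), −22.3 in eA and −20.4 in lA. At 8891 genes with no H3K27ac peak within 1 kb at any stage, 77.0% of start sites had no H3K4me1 within 2 kb in aNPC, and the later lists gave 74.9% and 74.6%.

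**Figure D2:**
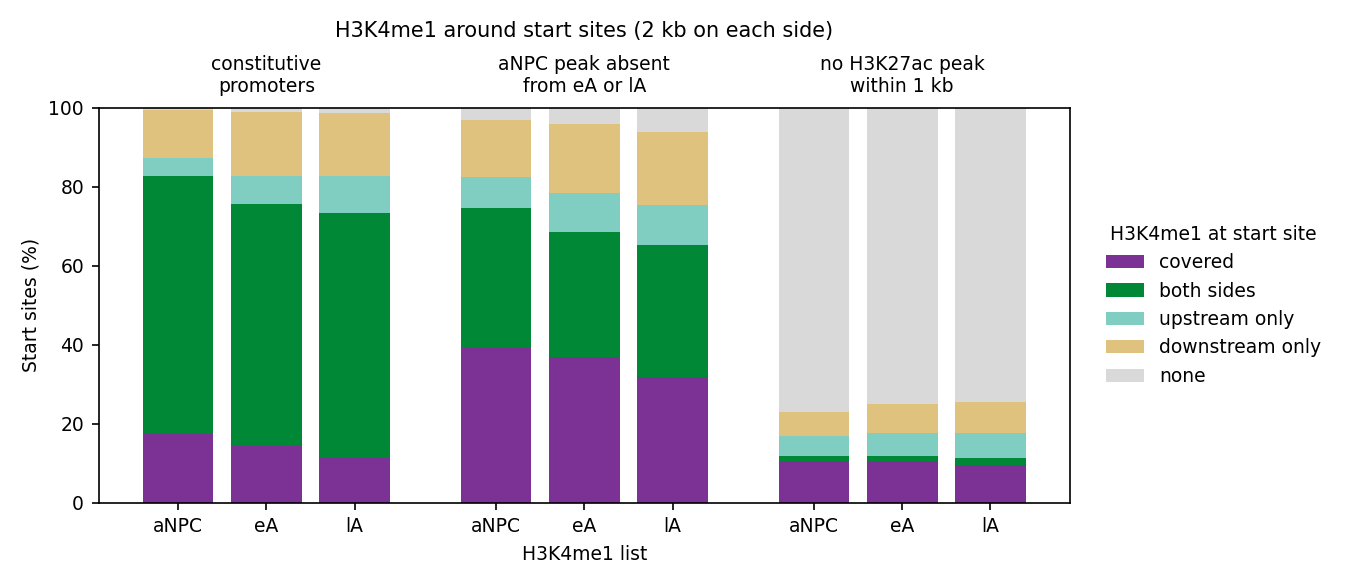
Share of start sites (vertical axis, percent) by the position of H3K4me1 within 2 kb, for each H3K4me1 list and 3 sets of start sites. Flanked start sites (both sides) make up 65.3%, 61.1% and 61.8% of constitutive promoters, and covered ones shrink from 17.5% to 11.4%; genes without H3K27ac mostly have none.

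The profile over position showed a trough at the start site between unequal shoulders. In aNPC, H3K4me1 covered 51.0% of the members' positions at −450 bp, 17.5% at the start site and 60.7% at +850 bp. In eA the shoulders stood at −500 bp (45.1%) and +900 bp (55.4%), and in lA at −550 bp (43.9%) and +950 bp (51.5%). Both shoulders were therefore lower and farther out in each later list, and the downstream one was the higher in all 3. At 5 kb upstream, the coverage was 5.04%, 6.03% and 6.16%. Genes without H3K27ac had no trough: their coverage was 10.6%, 10.5% and 9.66% at the start site, with the maximum at +100 bp.

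**Figure D3:**
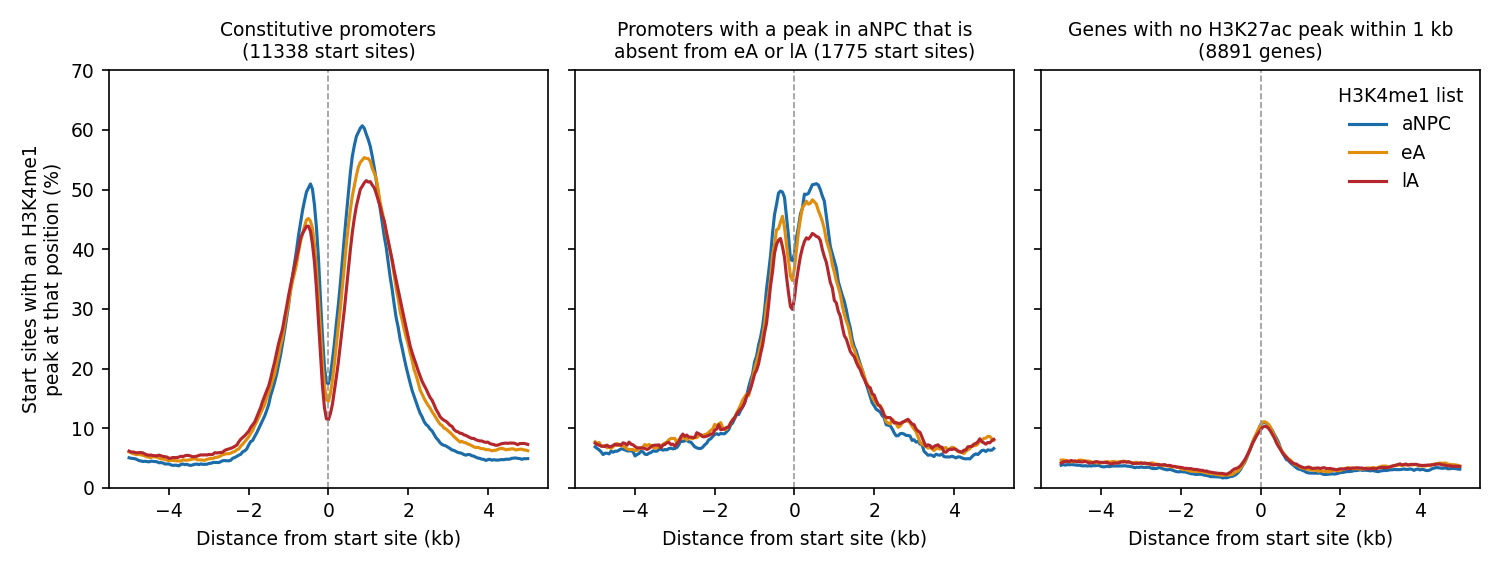
Share of start sites with an H3K4me1 peak at each position (vertical axis, percent) against the distance from the start site (horizontal axis, kb, positive downstream), one line per H3K4me1 list, for constitutive promoters, promoter peaks absent from eA or lA, and genes without H3K27ac. In constitutive promoters a trough at the start site (17.5%, 14.5% and 11.4%) lies between a lower upstream and a higher downstream shoulder, which move outward from aNPC to lA.

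Distances to the nearest H3K4me1 edge gave the same order. At members' start sites that were not covered, the median distance upstream, where an edge lay within 5 kb, was 347, 398 and 436 bp at the aNPC, eA and lA stages. Downstream it was 520, 575.5 and 663 bp. At the 5487 start sites flanked at every stage, the gap between the flanking peaks had a median of 882 bp in aNPC (quartiles 588 and 1293), 995 bp in eA (660 and 1446.5) and 1110 bp in lA (747.5 and 1614). The gap was wider in lA than in aNPC at 4384 of these start sites and narrower at 1098, with a median change of +163 bp. Taken separately, the downstream distance had a median change of +93 bp and the upstream distance of +44 bp, and medians of the sides do not add up to that of the gap. The lA list has more H3K4me1 peaks than the aNPC list, and with equal numbers of the strongest peaks the median gaps were 871, 997 and 1138.5 bp over the 4670 start sites then flanked at every stage. These medians are over fewer start sites than those above. Leaving out weak peaks can only widen the gap at a given start site, and the part of list length or depth in the difference was not tested.

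**Figure D4:**
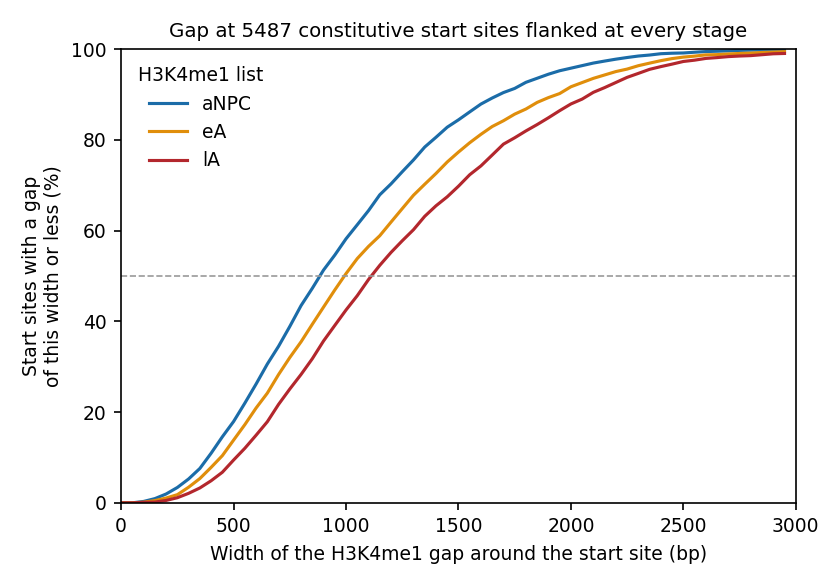
Cumulative share of start sites (vertical axis, percent) by the width of the gap between the flanking H3K4me1 peaks (horizontal axis, bp) at the 5487 constitutive start sites flanked at every stage. The curves cross the dashed line at 50% near the medians of 882, 995 and 1110 bp, with lA to the right of eA and eA to the right of aNPC.

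Most start sites kept their class. The class was the same in all 3 lists at 7719 start sites (68.1%), of which 5487 were flanked, 1007 covered, 904 had H3K4me1 only downstream, 292 only upstream and 29 none. Of the start sites covered in aNPC, 1110 (56.1%) were covered in lA and 630 (31.8%) were flanked there. Of those flanked in aNPC, 138 (1.86%) were covered in lA. Start sites covered in a single list numbered 488 for aNPC, 158 for eA and 90 for lA, and 9015 (79.5%) were covered in none.

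Examples of some of these patterns show their scale. Atp6v0c, the gene of a subunit of the vacuolar proton pump, had its start site at 24306406 on chromosome 17 and a −log10 q of H3K27ac of 954 in aNPC. Its nearest H3K4me1 upstream was 404 bp away in aNPC, then 746 and 712 bp away, and downstream 827, 1015 and 900 bp. Cops5, which encodes the catalytic subunit of the COP9 signalosome, was steadier, with 767, 801 and 798 bp upstream and 1013, 1039 and 1001 bp downstream. Orc6, of the origin recognition complex, had 797, 1419 and 1394 bp upstream and 886, 943 and 904 bp downstream. In all 3 genes the gap was open on both sides at every stage, and the upstream side was shorter in aNPC than in eA or lA.

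Wide members could lie in a still wider region without H3K4me1. At Sox4 the nearest H3K4me1 lay 2900, 2849 and 2933 bp upstream and 2130, 2232 and 2208 bp downstream. The centre of the Sox4 member lay at −934 bp from this annotated start site, in coding sequence. The distances at Sox4 hold for this start site only. At Anp32a it lay 2697, 2692 and 3137 bp upstream and 2292, 2734 and 3192 bp downstream. At Zeb2, a transcription factor gene, it lay 4219, 4148 and 4131 bp upstream and 3756, 2444 and 2438 bp downstream. Sox4 and Anp32a are also among the 10 widest members.

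Start sites covered in a single list are shown by 4 of the genes with the strongest covering peaks. Pnpla3, a lipid metabolism gene, had its start site inside an H3K4me1 peak of 1586 bp in aNPC, while the nearest H3K4me1 downstream began 20 bp away in eA and 6 bp away in lA. Fgf18, a growth factor gene, lay inside a peak of 861 bp in aNPC, and H3K4me1 began 38 bp downstream in eA and 154 bp downstream in lA. Ruvbl1, the gene of an ATPase of chromatin remodelers, was covered in eA, with H3K4me1 51 bp downstream in aNPC and 141 bp downstream in lA. E2f7, a cell cycle repressor gene, was covered in lA by a peak of 1197 bp and had H3K4me1 2 bp downstream in aNPC and 1 bp downstream in eA. At E2f7 and Pnpla3 the start site thus lay at most 20 bp outside a peak in the lists that did not cover it.

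The highest −log10 q of a covered member was at a predicted gene. Gm10800 had a −log10 q of 12931 for H3K27ac in aNPC, and its start site lay inside H3K4me1 peaks with −log10 q values of 20303, 23959 and 12434. It is 1 of 3 members between 98502280 and 98507579 on chromosome 2, and a second cluster of 11 members at predicted genes such as Gm10718 and Gm10722 lay between 2999946 and 3038205 on chromosome 9. Outside both clusters the highest value was 1730, at Sfi1, a centrosome gene. No input was subtracted when the peaks were called, and what these clusters and the peak at Sfi1 owe to background was not tested. Without the 14 members of both clusters, the covered share in aNPC was 17.4%.

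The fixed astroglial and progenitor genes differed in where H3K4me1 lay. At Gfap, the astrocyte filament gene, the H3K4me1 nearest to the start site at 102758514 on chromosome 11 was 35, 152 and 25 bp upstream, in stage order, and more than 2 kb away downstream in each list. Slc1a3, the glutamate transporter gene, had H3K4me1 288, 277 and 402 bp upstream and 3174, 3221 and 3186 bp downstream. Nfia, a transcription factor gene of gliogenesis, had it 547, 740 and 576 bp upstream and 7958, 7817 and 7386 bp downstream. None of the 3 start sites was covered in any list.
Vim, the vimentin gene, had H3K4me1 245, 714 and 919 bp upstream. Sox2, a transcription factor gene of neural progenitors, had 416, 500 and 491 bp, and Id3, which encodes an inhibitor of basic helix-loop-helix factors, 46, 202 and 112 bp. Vim thus showed the largest outward shift of these 3. Others had H3K4me1 within 2 kb on both sides in at least 1 list. Aldoc, a glycolytic gene of astrocytes, had it 1202, 1512 and 2331 bp upstream and 484, 1983 and 633 bp downstream. Sox9, a transcription factor gene of gliogenesis, had 610, 636 and 480 bp upstream and 1765, 2218 and 2139 bp downstream. Nes and Id1 were likewise flanked in aNPC, and Id1 also in eA. Hes1, a Notch target gene, had H3K4me1 456 bp upstream in aNPC and none within 2 kb in eA (2071 bp) or lA (2084 bp). Nfib had none within 2 kb in aNPC or eA and had H3K4me1 1603 bp upstream in lA.

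Atf3 and Runx2, genes of factors that the study depleted in other samples, each had a member whose start site was covered in aNPC and not in lA. The start site of Atf3 at 193007219 on chromosome 1 lay inside an H3K4me1 peak of 1396 bp in aNPC. In eA it was flanked at 301 bp upstream and 1532 bp downstream, and in lA the nearest H3K4me1 was 2329 bp upstream and 1670 bp downstream. Runx2, which has 2 annotation records, had a member at its start site at 44873597 on chromosome 17, which was covered in aNPC and eA and had H3K4me1 only downstream in lA, 1985 bp away. Its other start site, at 44951576, had no member and was covered in all 3 lists. Stat3, the gene of the transcription factor activated by LIF signalling, was flanked at every stage, at 466, 510 and 542 bp upstream and 1033, 1891 and 1679 bp downstream. H3K27ac at Atf3 was not narrower while the cover was lost, with 691, 946 and 963 bp.

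Among housekeeping genes, Gapdh had H3K4me1 534, 1013 and 1538 bp upstream and 810, 824 and 949 bp downstream. Polr2a, the gene of the largest subunit of RNA polymerase II, had 579, 896 and 688 bp upstream and 853, 1014 and 888 bp downstream. Actb had 356, 1017 and 938 bp upstream and was flanked only in aNPC. Eef1a1, a translation elongation factor gene, had 1355, 1330 and 1499 bp upstream and 406, 1001 and 967 bp downstream. The upstream distance was shortest in aNPC at Gapdh, Polr2a and Actb, and in eA at Eef1a1.

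The cover of start sites differed between the gene lists. Of the 75 cytosolic ribosomal protein genes with a constitutive promoter, none had a covered start site in any list, which allows a share of up to 4.87% by the upper Wilson bound. Over all 10303 genes with a constitutive promoter, the covered shares were 16.2%, 13.4% and 10.4% in the lists of aNPC, eA and lA. Ribosomal protein genes also had a wider gap, with a median of 1339 bp in aNPC against 903 bp over all these genes. Not every one followed this: the gap at Rpl21 was narrower in aNPC than the median over all these genes. At Rpl21, H3K4me1 lay 448, 368 and 462 bp upstream and 421, 665 and 445 bp downstream. Proteasome genes were covered in 3 of 36 cases in aNPC (8.33%, 95% Wilson interval 2.87 to 21.8) and translation factor genes in 5 of 58 (8.62%, 3.74 to 18.6), intervals that include the share over all these genes. The mitochondrial ribosomal protein genes had a median gap of 833 bp in aNPC, and 3 of 74 were covered there. None of the 16 replication genes with a constitutive promoter was covered in any list, which allows a share of up to 19.4% and so includes the overall share. Of 251 zinc finger genes with a constitutive promoter, 29 were covered in aNPC (11.6%), and 22 and 18 in the later lists. Among Hox genes with a constitutive promoter, 2, 4 and 2 of 7 were covered (aNPC, eA, lA), and Hoxd3 was covered in all 3.

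The base composition of the promoters was computed over 500 bp on either side of the start site. The CpG ratio, the number of CpG divided by that expected from the C and G content, had a median of 0.763 at members' start sites against 0.549 at all coding start sites. The median G and C content was 60.7% against 55.3%. Start sites with a CpG ratio of 0.75 or more (high) made up 52.9% of members, and those under 0.48 (low) made up 10.5%, against 27.9% and 45.6% of all coding start sites. A high CpG ratio was thus more common among members, and a low one rarer. At the examples printed above, the ratio was 0.142 at Cdk2ap1, 0.716 at Slc35e2, 0.789 at Zfp335, 0.805 at 5031425E22Rik and 1.04 at Hnrnpa2b1. Cdk2ap1 lay far below the median of 0.494 over the 1007 start sites covered at every stage, and the median of the 5487 flanked at every stage was 0.792.

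The cover by H3K4me1 differed sharply with CpG. Among members, 60.4% of the 1196 start sites with a low CpG ratio were covered in aNPC, 21.1% of the 4142 in between and 6.37% of the 6000 with a high ratio. The difference of low minus high was 54.0 points in aNPC (95% Newcombe interval 51.1 to 56.8), 47.6 in eA and 45.2 in lA. In eA the covered shares were 52.8%, 16.8% and 5.22%, and in lA 48.7%, 12.1% and 3.50%. Each class had its highest covered share in aNPC and its lowest in lA. The median gap at flanked start sites rose from 538 bp in the low class to 689 and 1077 bp in the others in aNPC, and across 7401 flanked start sites the rank correlation of the CpG ratio with the gap was 0.416 in aNPC. The points of that correlation are start sites of 1 list, and both measures share the position of the start site.

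Genes without H3K27ac showed the opposite order. At their start sites, 4.34% of the 7321 with a low CpG ratio were covered by H3K4me1 in aNPC, 35.1% of the 1215 in between and 57.4% of the 338 with a high ratio. In eA these shares were 4.73%, 32.9% and 55.9%, and in lA 4.40%, 29.4% and 53.0%. Members minus these genes therefore gave 56.0 points in the low class (95% Newcombe interval 53.2 to 58.8) and −51.0 points in the high class (−56.2 to −45.7) in aNPC. At promoter peaks absent from eA or lA, the shares in aNPC were 57.4%, 40.5% and 21.6%. Against these, members differed by 2.99 points in the low class, with an interval of −1.80 to 7.82 that includes 0, and by −15.2 points in the high class (−18.6 to −12.1).

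**Figure D5:**
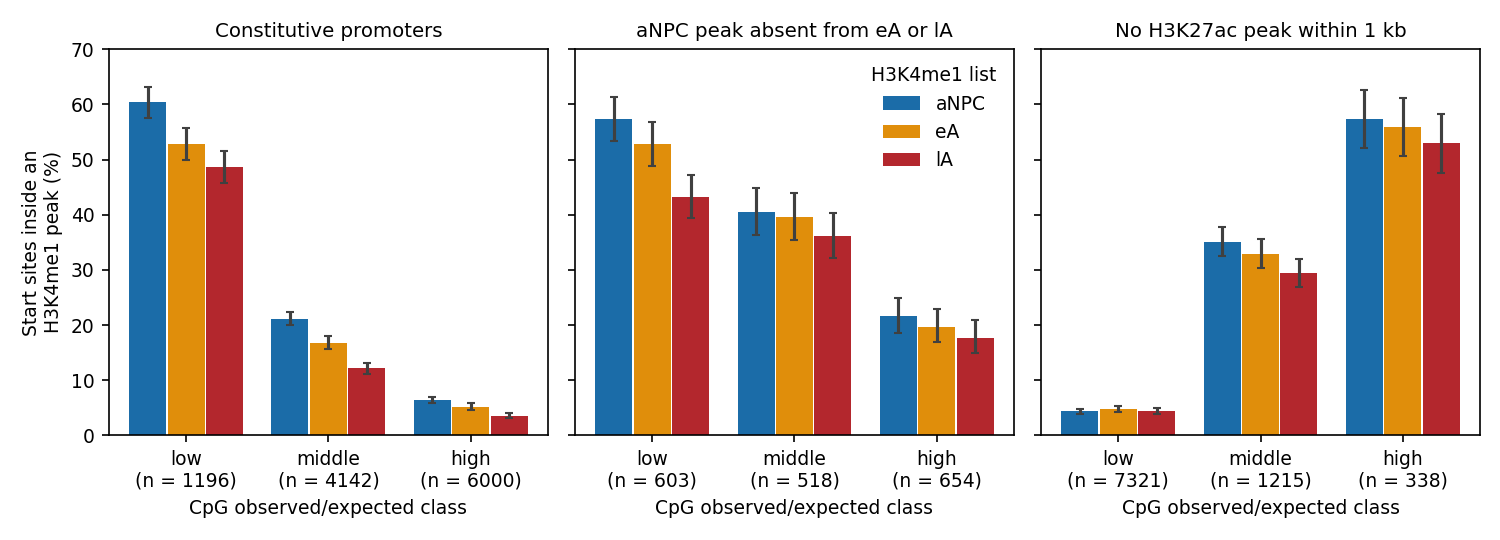
Share of start sites inside an H3K4me1 peak (vertical axis, percent, with 95% Wilson intervals) by class of the CpG ratio, H3K4me1 list and set of start sites. In constitutive promoters the share falls from 60.4% at a low to 6.37% at a high CpG ratio in aNPC, and at genes without H3K27ac it rises from 4.34% to 57.4%.

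Divergent promoters, with a coding start site of another gene on the other strand within 1 kb, made up 1456 of the members' start sites. They were covered in 8.17%, 6.11% and 4.26% of cases (aNPC, eA, lA), against 18.8%, 15.7% and 12.5% of the others. Divergent minus other start sites gave −10.7 points in aNPC (95% Newcombe interval −12.2 to −8.96). Their gap was wider, with medians of 1119, 1244 and 1313.5 bp against 859, 944.5 and 1042 bp. At flanked start sites their median upstream distance was longer, at 603 against 288 bp in aNPC. Their median downstream distance was shorter, at 474, 523 and 581 bp against 512, 554 and 615 bp. Upstream of such a start site lies the transcribed part of the neighbour. Mrps5 and Zfp661 are such a pair and share 1 member on chromosome 2. The start site of Mrps5 at 127412958 was flanked in all 3 lists, while that of Zfp661 at 127412830 was flanked in aNPC and covered in eA and lA.

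Short motifs were searched on both strands from 250 bases before to 50 bases after each start site, by exact letters. A match is a description of the sequence and not evidence of binding. The GC box, spelled GGGCGG, was found at 68.5% of members' start sites and 44.5% of all coding start sites. The core of ETS sites, spelled CCGGAAG, was found at 18.7% (2119 of 11338) against 4821 of 43969 start sites, and the NRF1 core, spelled GCATGCGC, at 5.67% against 3.25%. The YY1 core, spelled AAGATGGC, was found at 5.20% against 3.38% and the CRE, spelled TGACGTCA, at 3.56% against 2.14%. The E-box, spelled CACGTG, was found at 10.0% against 7.67%. The CCAAT box, spelled CCAAT, was about as frequent in both, at 35.7% against 35.3%, and so was the ZNF143 core, spelled ACTACAAT, at 1.04% against 0.835%. The GC box, the ETS and NRF1 cores, the CRE and the E-box contain CpG, while the YY1 and ZNF143 cores and the CCAAT box do not, and the part of CpG content in these shares was not tested.

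The TATA box was rarer among members. The letters TATAAA were found in the window of 5.12% of members' start sites against 11.4% of all and 22.7% of genes without H3K27ac. On the sense strand and beginning 36 to 22 bases before the start site, they were found at 78 members' start sites (0.688%) against 1.44% of all. Those 78 start sites were covered by H3K4me1 in 35.9% of cases in aNPC, against 17.3% of the other members. The 2 TATA promoters of an immediate early gene and of a histone gene show the arrangement, with matches to the TATA, CCAAT and GC boxes in capitals in the 200 bases before the start site.
Fos, chr12:86814640-86814839, plus strand: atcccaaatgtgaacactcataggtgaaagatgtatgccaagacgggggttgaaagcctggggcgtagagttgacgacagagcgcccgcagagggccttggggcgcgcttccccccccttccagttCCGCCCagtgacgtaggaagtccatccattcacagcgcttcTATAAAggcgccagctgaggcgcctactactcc
Hist2h2aa1, chr3:96049261-96049460, plus strand: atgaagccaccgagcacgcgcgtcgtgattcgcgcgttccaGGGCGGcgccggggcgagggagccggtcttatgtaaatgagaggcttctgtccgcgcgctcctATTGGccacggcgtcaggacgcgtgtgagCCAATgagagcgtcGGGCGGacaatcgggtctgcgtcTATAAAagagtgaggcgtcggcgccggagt

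In Fos the TATA box began 33 bases and in Hist2h2aa1 30 bases before the start site. Fos was flanked by H3K4me1 in all 3 lists, at 423, 549 and 542 bp upstream and 756, 1929 and 1069 bp downstream. Its downstream distance was thus longest in eA, where its H3K27ac was widest.

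The ETS core went with an open start site. Members' start sites with the ETS core were covered in 6.61%, 5.33% and 3.21% of cases (aNPC, eA, lA), against 19.96%, 16.6% and 13.3% of those without it. Within the high CpG class the shares were 2.19%, 2.02% and 1.01% with the core in the 3 lists, against 7.40% in aNPC and 4.11% in lA without it. In that class the difference of with minus without was −5.20 points in aNPC (95% Newcombe interval −6.24 to −3.98). Of the start sites flanked at every stage, 22.6% had the ETS core, against 4.57% of those covered at every stage.

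The members just inside were at Arid2, Zbtb2 and Zbtb20, with centres 1000, 999 and 999 bp downstream of the start site and widths of 301, 338 and 265 bp. The peaks just outside were at Rbm24, Pde10a and Pvrl2, with centres 1001, 1003 and 1003 bp away and widths of 535, 1439 and 510 bp. The H3K27ac summit lay inside an aNPC H3K4me1 peak at 33.8% of constitutive peaks with centres within 200 bp of a start site, at 48.9% of those from 800 to 1000 bp and at 59.2% of those from 1000 to 1200 bp. The overlap of whole peaks with aNPC H3K4me1 did not follow this order, at 84.6%, 78.5% and 81.7%.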

How the data were processed

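The deposited peak lists hold, per the layout of narrow peaks, a start, an end, a fold enrichment (ratio) at the summit, a −log10 q at the summit and a summit offset. The authors aligned reads uniquely to mm9 with Bowtie, merged 2 biological replicates with SAMtools (version 0.1.19 in the submitters' processing notes) and called peaks with MACS at default settings without an input. The authors gave no counts with these lists, so depth is unknown.

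Start sites are those of protein-coding transcripts in GENCODE M1 on NCBIM37 (mm9). Overlap needs 1 bp. A gene may have several start sites, and the nearest to a member's centre was used. Intervals are 95% Wilson for shares and 95% Newcombe for differences, computed with Python 3.11.15 and SciPy 1.17.1. They cover counting over regions, not replicates. The functions were tested on simulated data. Coordinates are 1-based.

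The members and lists were chosen with earlier results of these data known. Genes were named by rule: the 10 widest members, the 3 highest −log10 q of each gene list, the 3 on each side of the 1 kb limit, lists' exceptions where there were at most 5, and fixed marker and housekeeping genes. The 5 highest were also named of start sites covered, flanked or without H3K4me1 within 2 kb at every stage, and of those covered in 1 list. No genes were named for H3K4me1 on a single side at every stage. Only those that illustrate a result are described. 1 of the sequences chosen this way is not reported here.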

Additional observations from a re-analysis of the deposited data

Results flagged for a closer look

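The report covers chromosomes 1 to 19. On the X chromosome, which was left out of it, 413 of 515 promoter peaks of aNPC (80.2%, 95% Wilson interval 76.5 to 83.4) met the same conditions of overlap and distance, which flags them as a signal outside the comparisons. An H3K4me1 peak overlapped 64.9% of these in aNPC, 51.3% in eA and 42.9% in lA. Their 383 start sites were covered in 42, 27 and 20 cases and flanked in 54.6%, 44.1% and 37.6%. The sex of the stem cell line and the copy number of the X chromosome in these cultures were not tested.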

How the results depend on the processing

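No paired analysis was possible because each list merges both replicates of its group, so leaving out a replicate was not run either. Depth is not known for these lists. Joined peaks, equal numbers for the flanked share, the distances and the gap, the gap with a −log10 q floor or with the most upstream start site, and all settings without the 2 clusters of predicted genes were chosen after seeing the data. All values are for aNPC, eA and lA in that order.

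The number of members was 7043 with centres from 1 kb upstream to 100 bp downstream, and otherwise between 10320 and 12083. With a −log10 q of at least 5, 79.97%, 70.7% and 65.4% of members overlapped H3K4me1, the flanked shares were 60.7%, 53.9% and 55.1%, and edges lay 413 (eA) and 448 bp (lA) upstream and 533, 608 and 685.5 bp downstream. With equal numbers of H3K4me1 peaks, 72.0% (eA) and 64.0% (lA) of members overlapped, the covered share was 10.8% (lA), the flanked shares 56.4% (eA) and 52.4% (lA), the upstream edge 455 bp (lA), the downstream edge 598 (eA) and 695 bp (lA) and the gap 1138.5 bp (lA). The H3K27ac summit lay inside H3K4me1 at 38.7%, 33.8% and 27.5% of members. The most upstream start site per gene gave covered shares of 15.5%, 12.9% and 10.3% and gaps of 970.5 (eA) and 1087.5 bp (lA). Without divergent start sites, covered shares were 18.8%, 15.7% and 12.5% and upstream edges 310, 360 and 395 bp. Joining peaks closer than 300 bp gave covered shares of 21.4%, 17.5% and 13.7% and flanked shares of 61.3%, 58.1% and 59.5%. Flanks of 1 kb gave 51.5%, 44.7% and 42.7%, and flanks of 5 kb 71.6%, 71.5% and 74.2%. Summits lay 621, 688 and 726.5 bp upstream and 928, 1003 and 1076 bp downstream. In 200 bp windows, members minus promoter peaks absent from eA or lA turned to −23.7, −23.9 and −25.2 points; the cause was not tested. The covered share was highest in aNPC and lowest in lA with the −log10 q floor, equal numbers, the most upstream start site, joined peaks and without divergent start sites, and the median gap was narrowest in aNPC and widest in lA in the settings run for it (the floor, equal numbers, the most upstream start site and without the 2 clusters), while the flanked share of lA was above that of eA as reported and under the −log10 q floor, joined peaks and 5 kb flanks, and below it with equal numbers and 1 kb flanks.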
